A study of Saccharomyces cerevisiae with 11 samples.

Results

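The genes described here are 10 mating genes of the yeast Saccharomyces cerevisiae, found by symbol among 5597 genes tested. They comprise 4 alpha-specific genes (MF(ALPHA)1, MF(ALPHA)2, STE3 and SAG1), 5 a-specific genes (MFA1, MFA2, STE2, STE6 and BAR1) and PRM3. Each gene had a probe set annotated to it alone, and MFA1 had 2, so that 11 probe sets were found. The genes were selected on their log2 changes against the chemostat in these same arrays, with earlier results of the data known. Their own values are therefore a description and carry no test.

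The strain was CEN.PK113-7D (MATa MAL2-8c SUC2), a prototrophic haploid of mating type a that all samples share. Cells were grown without oxygen with glucose as the limiting nutrient. The reference group was a set of 3 independent chemostats growing at 0.025 per hour. A pair of independent retentostats, in which a filter keeps the cells in the vessel, was sampled after 2, 9, 16 and 22 days, at 0.0084, 0.0024, 0.0011 and 0.00063 per hour. Each retentostat day thus has 2 arrays, and arrays of different days come from the same cultures. In the lists of values below, replicate 1 comes first.

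Haploid yeast occurs in the mating types a and alpha. An alpha cell secretes alpha-factor, made from MF(ALPHA)1 and MF(ALPHA)2, and carries the a-factor receptor Ste3 and the agglutinin Sag1. An a cell secretes a-factor, made from MFA1 and MFA2, through the transporter Ste6. It senses alpha-factor with the receptor Ste2 and degrades it with the protease Bar1. In a cells the alpha-specific genes lack their activator, and the alpha information, which an a cell does not have at its active mating-type locus, is kept silent at the HML locus. Pheromone bound to its receptor acts through a G protein and a MAP kinase cascade on the transcription factor Ste12, which switches on genes of mating and cell fusion.

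The deposited values are linear array intensities. The log2 values of arrays of 1 group correlated over genes with r between 0.967 and 0.992. The median of all genes lay above the chemostat by 0.04 log2 units on day 2, 0.06 on day 9, 0.14 on day 16 and 0.23 on day 22. All log2 changes and folds below are given relative to that median, with the SE of the fit, while every test used the unshifted values. Actin has probe sets near both ends of its transcript, and the 5' over 3' ratio, a measure of RNA integrity, was 0.766 to 0.796 in the chemostats. It was 0.736 and 0.472 on day 16 and 0.571 and 0.341 on day 22. TBP, measured likewise from both ends of its transcript, showed no such fall. Its ratios were 0.548, 0.562 and 0.466 in the chemostats, 0.563 and 0.568 on day 16, and 0.537 and 0.476 on day 22. Whether the RNA of the late arrays was degraded was not tested. RNA was taken from whole cultures, so more cells with a transcript and more transcript per cell cannot be told apart.

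The label was checked against genes that mark the cell types. All 7 a-specific and all 7 haploid-specific marker genes lay above the lower limit of 12 set for intensities on every array. Of the 4 alpha-specific markers 3 did so as well, and MF(ALPHA)2 was at or under it on 1 chemostat and 1 day 2 array. The summed intensity of the alpha-specific markers was between 351 and 415 in the chemostats and between 2302 and 2685 on day 22. That of the a-specific markers, which include AGA2 and ASG7, was between 16059 and 21089 in the chemostats and between 21978 and 32652 on day 22. Detection calls were not used here, and whether the low alpha-specific signals of the chemostats exceed unspecific hybridization was not tested.

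The 4 alpha-specific genes were all higher from day 9 onward. Their log2 changes on day 2 ran from 0.13 for MF(ALPHA)2 to 1.07 for MF(ALPHA)1. The 5 a-specific genes moved less on days 16 and 22, and not all in 1 direction. On day 9 MFA2 (0.87 ± 0.19) and MFA1 (0.81 ± 0.28) were close to SAG1 (0.90 ± 0.15). MF(ALPHA)1, which encodes the main precursor of alpha-factor, had the largest change of the 10 genes. Its intensities were 147, 152 and 194 in the chemostats, 380 and 328 on day 2, 666 and 1206 on day 9, 1575 and 1553 on day 16, and 1733 and 2049 on day 22. No group overlapped with the one before it. The mean intensity was 164 ± 25.7 (SD, n = 3) for the chemostats, and the day 22 arrays had a mean of 1891 ± 223 (SD, n = 2).

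The log2 change of MF(ALPHA)1 against the chemostat was 1.07 ± 0.24 on day 2, 2.40 ± 0.24 on day 9, 3.12 ± 0.24 on day 16 and 3.30 ± 0.24 on day 22. On day 22 this was a 9.83-fold difference, the 14th largest rise among the 5597 genes. On the log2 scale most of this difference was reached by day 9, when the mean intensity was 936. From day 16 to day 22 the change was 0.20 ± 0.26. Without the 2 arrays of lowest actin ratio, the change on day 22 as fitted was 3.41 in place of 3.53.

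MF(ALPHA)2, the second and minor alpha-factor gene, was near the lower limit at first. It measured 13.1, 8.40 and 13.6 in the chemostats, 17.5 and 9.90 on day 2, 53.3 and 63.8 on day 9, 108 and 64.4 on day 16, and 68.1 and 60.3 on day 22. The chemostat and day 2 values overlapped, and all values from day 9 on lay above them. With values under 12 set to 12, the log2 change was 0.13 ± 0.24 on day 2, 2.12 ± 0.24 on day 9, 2.56 ± 0.24 on day 16 and 2.08 ± 0.24 on day 22. The limit makes these changes too small where a chemostat array lay under it. The precursors of both genes are similar, and whether the transcript of one adds to the signal of the other was not tested.

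**Figure D1:**
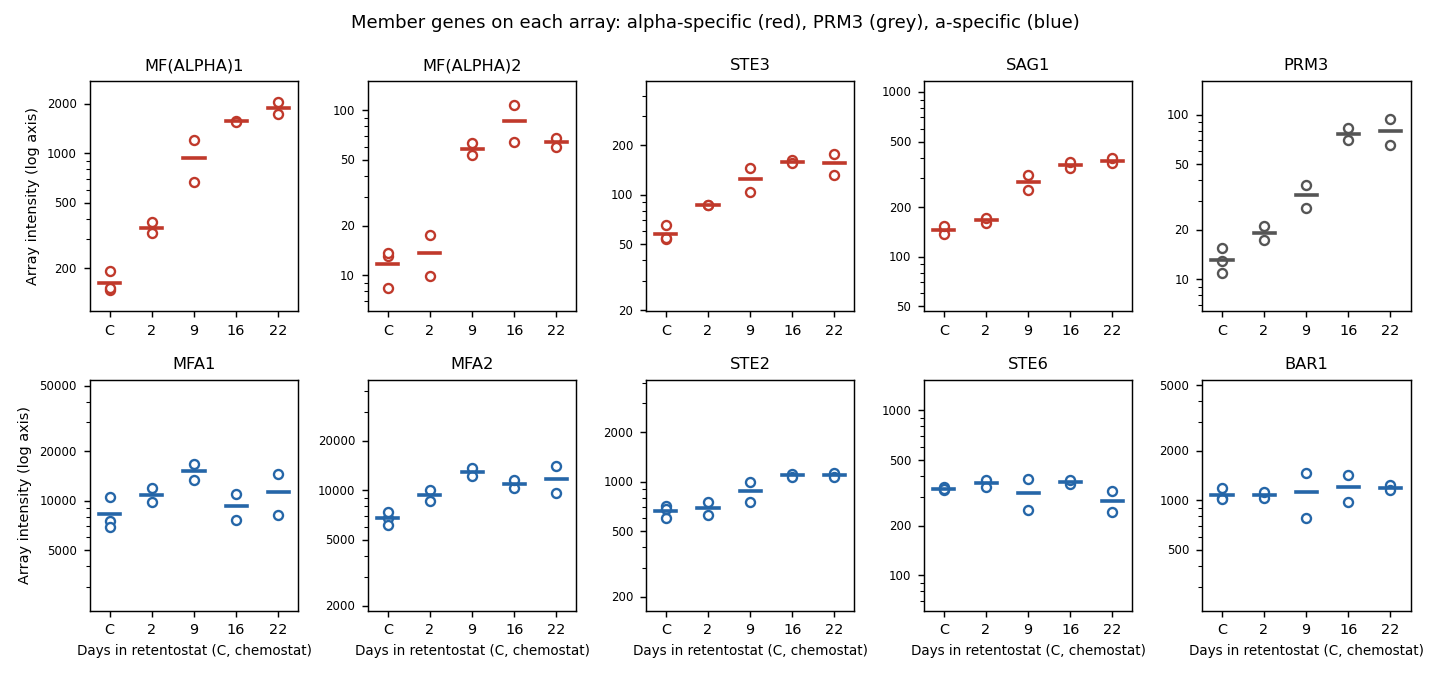
Array intensity (log axis) of the 10 genes on each of the 11 arrays, by days in the retentostat, with C for the chemostat. Circles are arrays and bars are group means, and every panel spans the same fold range; the alpha-specific genes (red) and PRM3 (grey) climb from C to day 16, from 164 to 1564 for MF(ALPHA)1, while BAR1 and STE6 (blue) stay near their chemostat values.

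From day 9 on, the other 2 alpha-specific genes changed less than the alpha-factor genes. STE3, the receptor for a-factor, measured 65.8, 54.1 and 54.9 in the chemostats, 86.7 and 86.3 on day 2, 105 and 146 on day 9, 162 and 156 on day 16, and 132 and 178 on day 22. Every retentostat array lay above every chemostat array, and day 16 and day 22 overlapped. The log2 change was 0.53 ± 0.19 on day 2, 1.03 ± 0.19 on day 9, 1.32 ± 0.19 on day 16 and 1.17 ± 0.19 on day 22. SAG1, the alpha-agglutinin of the cell surface, measured 146, 137 and 153 in the chemostats, 161 and 173 on day 2, 312 and 255 on day 9, 347 and 377 on day 16, and 368 and 397 on day 22. The 2 day 2 arrays lay just above the chemostats, and the step to day 9 was the largest. The log2 change was 0.16 ± 0.15 on day 2, 0.90 ± 0.15 on day 9, 1.18 ± 0.15 on day 16 and 1.17 ± 0.15 on day 22.

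PRM3 encodes a pheromone-regulated protein of the nuclear envelope that is needed for nuclear fusion after mating. It measured 15.4, 10.9 and 13.0 in the chemostats, 17.3 and 21.1 on day 2, 27.2 and 37.6 on day 9, 70.0 and 82.9 on day 16, and 65.5 and 93.7 on day 22. The groups did not overlap up to day 16, and days 16 and 22 overlapped. The log2 change was 0.47 ± 0.22 on day 2, 1.19 ± 0.22 on day 9, 2.37 ± 0.22 on day 16 and 2.32 ± 0.22 on day 22. A lower limit of 50 in place of 12 hides most of this difference and gives 0.65 on day 22 as fitted, against 2.55.

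The a-factor genes were high in the chemostat already. MFA2 measured 6757, 6188 and 7385 in the chemostats, 10066 and 8678 on day 2, 13611 and 12195 on day 9, 10330 and 11612 on day 16, and 14014 and 9595 on day 22. Every retentostat array lay above every chemostat array, with the highest log2 change, 0.87 ± 0.19, on day 9, and 0.55 ± 0.19 on day 22. MFA1 was measured by 2 probe sets that did not give the same picture. The brighter measured 7541, 6950 and 10495 in the chemostats, 16732 and 13450 on day 9, 7642 and 10995 on day 16, and 14473 and 8165 on day 22. It overlapped with the chemostats on days 2, 16 and 22, and its log2 change was 0.81 ± 0.28 on day 9 and 0.18 ± 0.28 on day 22.

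The second probe set of MFA1 measured 1324, 1219 and 1394 in the chemostats and 2198 and 2098 on day 22. On it all 8 retentostat arrays lay above the chemostats. Its log2 change was 0.27 on day 2, 0.51 on day 9, 0.54 on day 16 and 0.48 on day 22. For MFA1 the order of the days thus depends on the probe set. Whether the transcript of one a-factor gene adds to the signal of the other was not tested.

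STE2, the receptor for alpha-factor, measured 604, 712 and 686 in the chemostats, 753 and 632 on day 2, 753 and 997 on day 9, 1121 and 1063 on day 16, and 1128 and 1066 on day 22. It lay above the chemostats on both arrays of days 9, 16 and 22. The log2 change was 0.01 ± 0.17 on day 2, 0.32 ± 0.17 on day 9, 0.58 ± 0.17 on day 16 and 0.49 ± 0.17 on day 22. STE6, the exporter of a-factor, measured 329, 344 and 333 in the chemostats, 250 and 382 on day 9, 356 and 377 on day 16, and 243 and 322 on day 22. It was below the chemostats on both day 22 arrays and above them on both day 16 arrays, and its log2 change on day 22 was −0.49 ± 0.20.

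BAR1, the secreted protease that cleaves alpha-factor, measured 1033, 1016 and 1181 in the chemostats, 1029 and 1131 on day 2, 783 and 1464 on day 9, 1422 and 980 on day 16, and 1232 and 1162 on day 22. These groups overlapped with the chemostats on every day. Its log2 changes were −0.03, −0.07, 0.00 and −0.08 on days 2, 9, 16 and 22, each with an SE of 0.25. The signs of so small a change depend on the scaling: on day 22 the change was 0.16 as fitted, without the shift to the median.

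**Figure D2:**
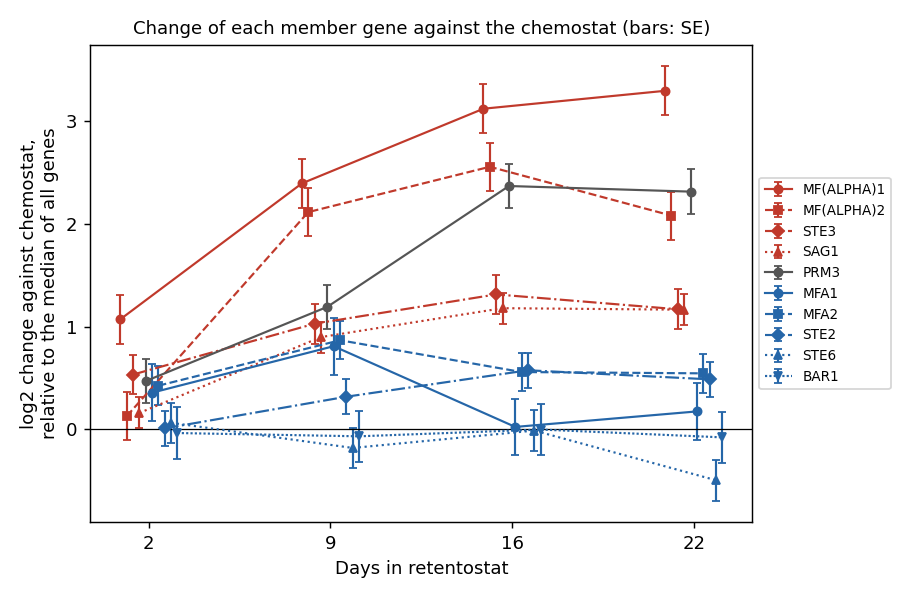
Log2 change of each gene against the chemostat, relative to the median of all genes, by days in the retentostat; bars are the SE of the fit. On day 9 the alpha-specific genes (red) and the a-specific genes (blue) are not separated beyond the SE. SAG1 is at 0.90 ± 0.15, close to MFA2 at 0.87 ± 0.19 and MFA1 at 0.81 ± 0.28. On the later days the alpha-specific genes and PRM3 (grey) lie above the a-specific genes. On day 22 the alpha-specific genes and PRM3 span 1.17 to 3.30 while the a-specific genes span −0.49 to 0.55.

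The difference between the alpha-specific and the a-specific genes is free of the scaling shift that all genes of an array share. The median log2 change of the 4 alpha-specific genes exceeded that of the 5 a-specific genes by 0.28 on day 2 and 1.25 on day 9. It did so by 1.91 on day 16 and 1.45 on day 22. On days 16 and 22 the a-specific median was the value of MFA1 on its brighter probe set. On day 16 MFA1 changed by 0.02 on that probe set and by 0.54 on its second one. With all probe sets averaged, the day 16 difference was 1.65, so its size depends on the choice of probe set. The difference was also taken from medians within each array, set against the chemostat means. These need not average to the values of the fit, and both day 16 arrays lie under its 1.91. By array, the difference was 0.07, −0.02 and −0.05 in the chemostats and 0.33 and 0.34 on day 2. It was 1.39 and 1.24 on day 9, 1.87 and 1.45 on day 16, and 1.11 and 1.81 on day 22. All 8 retentostat arrays lay above the chemostats, and those of days 9, 16 and 22 above those of day 2. Both day 16 arrays lay above both day 9 arrays, and day 22 overlapped with days 9 and 16.

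The comparison of day 22 with day 2 sets retentostat groups against each other, with SEs from the fit of all 5 groups, chemostats included. Between these days MF(ALPHA)1 changed by 2.23 ± 0.26, MF(ALPHA)2 by 1.96 ± 0.26, PRM3 by 1.85 ± 0.24, SAG1 by 1.01 ± 0.17 and STE3 by 0.64 ± 0.21. Of the a-specific genes STE2 changed by 0.48 ± 0.19, MFA2 by 0.13 ± 0.20, BAR1 by −0.04 ± 0.27, MFA1 by −0.18 ± 0.30 and STE6 by −0.55 ± 0.22. The median of the alpha-specific genes exceeded that of the a-specific genes by 1.52.

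As a description of the fit, the 10 genes are set beside all genes at an adjusted p threshold of 0.05 (limma, Benjamini-Hochberg over 5597 genes). On day 2, 1 of the 10 was called higher, MF(ALPHA)1, where 0.983% of all genes were. That call was lost in 15 of 23 alternatives, among them both other scalings, the fit of the 2 groups alone, and leaving out chemostat replicate 1 or 2 or any array of day 2, 16 or 22. On day 9, 7 were called higher, where 22.4% of all genes were, namely the 4 alpha-specific genes, PRM3, MFA1 and MFA2. The MFA1 call was lost after quantile normalization and without chemostat replicate 1, chemostat replicate 2 or day 9 replicate 1. On days 16 and 22 the calls were 7 and 7, where 26.6% and 31.8% of all genes were called higher, with STE2 in place of MFA1. Without the 2 arrays of lowest actin ratio STE2 lost both calls and MFA2 that of day 16. MFA2 also lost the day 16 call without chemostat replicate 2 or day 16 replicate 2, and the day 22 call without day 22 replicate 1. Between day 22 and day 2, 6 were called higher, where 13.4% of all genes were. Of these, STE2 lost its call in 9 and STE3 in 7 of 24 alternatives. For both these included scaling to 1 median, the 2 groups alone, and leaving out the low-actin arrays, either day 2 array or day 22 replicate 2; STE2 also lost it without chemostat replicate 2 or day 22 replicate 1, and STE3 after quantile normalization. With a lower limit of 50, MF(ALPHA)2 lost its calls of day 9, day 22 and day 22 against day 2, and PRM3 that of day 9. None of the 10 was called lower in these comparisons, in which 0.482%, 15.5%, 12.8%, 10.8% and 3.2% of all genes were. Both day 22 arrays lay above all chemostats for 7 of the 10, where 46.5% of all genes did so, and below them for STE6 alone, where 21.2% did. Since the genes were chosen with these comparisons known, nothing is read from their counts. After quantile normalization or scaling to 1 median STE6 was called lower on day 22, and after the latter MFA2 was no longer called.

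The pathway around these genes was described with 70 other genes, of which 65 were tested. On day 22, 25 of the 65 had risen and 7 had fallen (49.2% called, against 42.6% of all genes). After quantile normalization 20 had risen and 12 had fallen, and after scaling to 1 median 18 and 12. Their median log2 change was 0.12 relative to all genes. The 2 arrays of lowest actin ratio move many of these calls: without them 13 of the 65 were called on day 22, and 15 of the 27 genes named below with a call lost it, whereas AGA1, KAR5, KSS1, PRM6, PRM7, SIR2, STE11 and STE24 kept theirs in each of the 23 alternatives run. Without day 22 replicate 2, 15 of the 65 were called, and 19 without day 22 replicate 1. On day 16, 22 had risen and 8 had fallen, where 39.4% of all genes were called, and on day 9, 18 had risen and 11 had fallen, where 37.9% were. On day 9 the total of 29 became 17 when chemostat replicate 2 was left out and 19 when replicate 1 of day 9 was. The single call on day 2 (1.47% of all genes called) was a fall of SWI5 by 1.18 ± 0.24 (limma, adjusted p = 0.046). This call ended after quantile normalization, with no lower limit, with no filter, with the 2 groups alone and with the replicate block. Leaving out any single array of the chemostats or of day 2, 16 or 22 ended it as well.

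The 2 other a-specific genes tested, AGA2 and ASG7, rose, as did AGA1. Aga2 is the adhesion subunit of the a-agglutinin, Aga1 anchors it in the cell wall, and Asg7 takes part in the handling of the G protein beta subunit after mating. AGA1 measured 616, 628 and 545 in the chemostats and 1470 and 1439 on day 22 (1.06 ± 0.20, limma adjusted p = 0.00057). ASG7 went from 47.0, 45.0 and 62.6 to 106 and 140 (1.03 ± 0.24, adjusted p = 0.0019), a call that ended without the 2 arrays of lowest actin ratio. AGA2 went from 778, 804 and 946 to 1455 and 1527 (0.60 ± 0.20, adjusted p = 0.0070), a call that ended without day 22 replicate 2. The changes were larger on day 16, at 1.61, 1.73 and 0.95 for AGA1, ASG7 and AGA2. All 3 genes were thus called higher on days 9, 16 and 22, where 22.4%, 26.6% and 31.8% of all genes were. On day 16 ASG7 exceeded the alpha-specific genes STE3 (1.32) and SAG1 (1.18), while AGA2 did not. The a-specific class is not described in full by the 5 members above.

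Of 13 pheromone-induced and cell fusion genes, 7 rose and 1 fell on day 22 (61.5% called, against 42.6% of all genes, median 0.76 relative to all genes). PRM6 rose most, from 49.5, 31.1 and 33.0 to 136 and 150 (1.72 ± 0.29, limma adjusted p = 0.00050). FIG2, a cell wall adhesin of mating cells, rose by 1.13 ± 0.33 and PRM7 by 1.08 ± 0.24. The call of FIG2 ended without either day 22 array. PRM4 fell by 0.81 ± 0.20, a call that ended without either day 22 array, chemostat replicate 1 or chemostat replicate 2. FUS1, a standard reporter of pheromone signalling, did not pass (0.20 ± 0.19, limma adjusted p = 0.087). It measured 112, 124 and 111 in the chemostats and 152 and 160 on day 22. FUS1 was named after its value was seen.

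The genes that carry the pheromone signal moved in both directions. Of 14 genes of the G protein and the MAP kinase cascade, 3 rose and 2 fell on day 22 (35.7% called, against 42.6% of all genes, median −0.17). STE11, the kinase at the head of the MAP kinase module, rose by 0.87 ± 0.14 (limma adjusted p = 0.00026), and STE50, its adaptor, by 0.57 ± 0.17. The STE50 call ended without the 2 arrays of lowest actin ratio. The scaffold gene STE5 rose by 0.42 ± 0.23, a call lost with either other scaling, with no filter on low genes, and on leaving out any chemostat or day 22 array. KSS1, the MAP kinase of filamentous growth, fell by 1.12 ± 0.16 (adjusted p = 0.0014), from 112, 99.8 and 104 to 59.6 and 54.8. AKR1, a palmitoyltransferase, fell by 0.67 ± 0.14, a call that ended without chemostat replicate 1, chemostat replicate 2 or either day 22 array.

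Among 8 outputs and brakes of the pathway, 3 rose and 0 fell on day 22 (37.5% called, against 42.6% of all genes, median 0.31). KAR4, a transcription factor of karyogamy genes, rose by 0.89 ± 0.29, and its call ended without either day 22 array. FAR1, which arrests the cell cycle on pheromone, rose by 0.43 ± 0.15, a call lost with scaling to 1 median or on leaving out day 22 replicate 2. The phosphatase gene MSG5 rose by 0.37 ± 0.17, a call lost with either other scaling and on leaving out either day 22 array. Of 7 nuclear fusion genes KAR5 rose, from 43.8, 39.2 and 38.4 to 85.3 and 109 (1.02 ± 0.19, limma adjusted p = 0.00051), and KAR1 fell by 1.04 ± 0.17. The call of KAR1 ended with a lower limit of 50. Of the 7 nuclear fusion genes 28.6% were called on day 22, against 42.6% of all genes.

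Of 9 pheromone processing genes 4 rose and 1 fell on day 22 (55.6% called, against 42.6% of all genes, median −0.10). STE24, a protease that trims a-factor and other prenylated proteins, rose from 411, 362 and 491 to 974 and 1231 (1.16 ± 0.21, limma adjusted p = 0.00059). KEX1, a carboxypeptidase that finishes alpha-factor, rose by 0.43 ± 0.19, and AXL1, a protease for a-factor, by 0.41 ± 0.19. Both calls were lost with either other scaling and on leaving out chemostat replicate 1 or either day 22 array. That of AXL1 was also lost without chemostat replicate 2, and that of KEX1 with a lower limit of 50. RCE1, the protease that removes the end of prenylated proteins, fell by 1.49 ± 0.37, a call lost with a lower limit of 50, with the 2 groups fitted alone, and on leaving out chemostat replicate 2 or day 22 replicate 1.

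**Figure D3:**
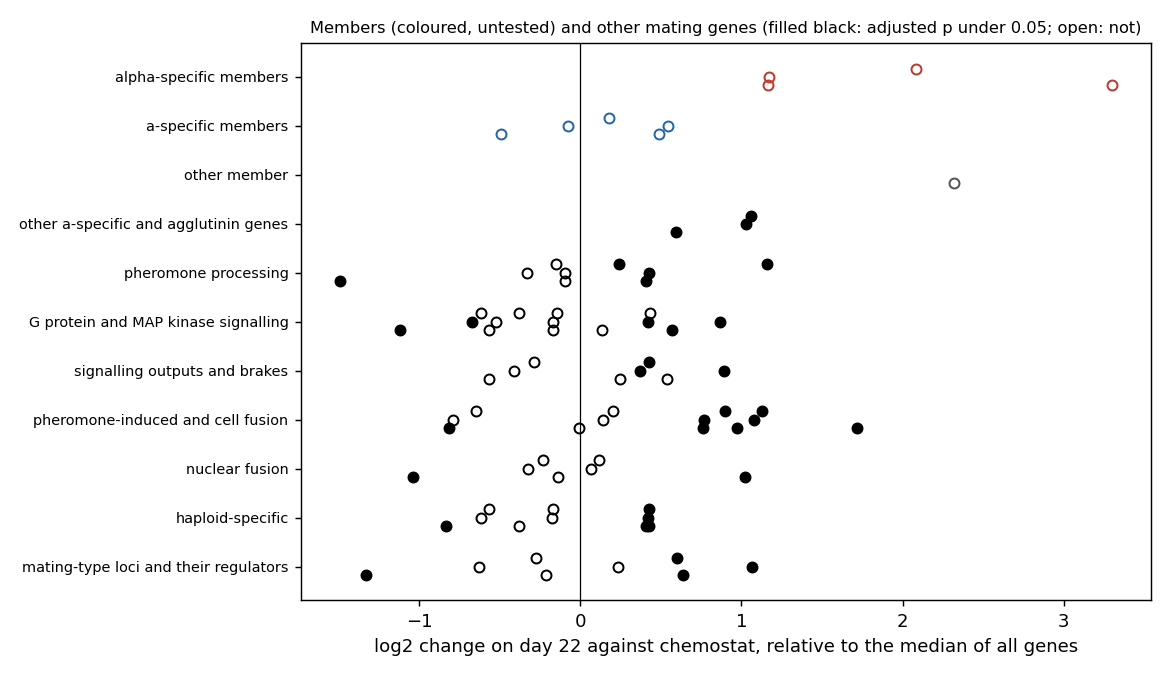
Log2 change on day 22 against the chemostat, relative to the median of all genes, for each gene of each list (some genes are in 2 lists). Coloured open circles are the 10 genes, shown untested; black circles are other genes, filled where the adjusted p was under 0.05, and they span −1.49 (RCE1) to 1.72 (PRM6).

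Genes that both haploid types express and a/alpha diploids repress did not move together. Of 10, 4 rose and 1 fell on day 22 (50% called, against 42.6% of all genes, median −0.17). Besides FAR1, STE5 and AXL1, these were RME1, a repressor of meiosis, which rose by 0.42 ± 0.23, and HO, the mating-type switching endonuclease, which fell by 0.83 ± 0.21. HO measured 201, 242 and 304 in the chemostats and 164 and 160 on day 22. The HO call ended without either day 22 array, either day 2 array, chemostat replicate 2 or chemostat replicate 3, and with the replicate number as a block. That of RME1 was lost with scaling to 1 median, with no filter, with only the 2 groups in the fit, and on leaving out any of 6 arrays (both of day 2, both of day 22 and chemostat replicates 1 and 2).

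The mating-type loci and their regulators had 8 genes tested, of which 3 rose and 1 fell on day 22 (50% called, against 42.6% of all genes, median 0.01). SIR2, the deacetylase that silences the mating-type cassettes, rose from 146, 131 and 216 to 381 and 408 (1.06 ± 0.22, limma adjusted p = 0.0010). ASH1, a repressor of HO in daughter cells, rose by 0.64 ± 0.20, a call that ended without the 2 arrays of lowest actin ratio. SWI5, an activator of HO, fell by 1.33 ± 0.24, a call that ended without day 22 replicate 1. SIR3 (−0.63 ± 0.19), SIR1 (0.23 ± 0.23) and SIR4 (−0.21 ± 0.20) did not pass on day 22, and MCM1, whose product works with the mating-type regulators, was at −0.27 ± 0.19. These 4 genes were named after their values were seen. SIR3 was called lower on day 9 (−1.08) and on day 16 (−0.76), where 15.5% and 12.8% of all genes were. Its day 16 call ended without chemostat replicate 1 or day 16 replicate 2. SIR1 had a second, dimmer probe set, on which the change was 0.77.

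HMRA1 stands for the a1 gene at the silent HMR locus. A MATa cell also carries the same sequence at its active mating-type locus, so this signal cannot be assigned to the silent copy. On its brightest probe set HMRA1 measured 628, 596 and 706 in the chemostats and 978 and 1333 on day 22 (0.60 ± 0.18, limma adjusted p = 0.0040, not called without day 22 replicate 2). A second probe set gave 1.38, and on the remaining one all 3 chemostat arrays lay under the lower limit, so no change is given from it. The other genes of the loci have no probe set of their own, and 4 probe sets carry 2 or 3 of their symbols, so no gene is named from them. One of these, annotated to 2 genes, measured 30.0, 39.4 and 38.9 in the chemostats, 59.4 and 43.1 on day 2, 74.2 and 91.8 on day 9, 154 and 104 on day 16, and 198 and 259 on day 22. Its groups did not overlap with the one before, and it was not tested. A second probe set of the same 2 genes measured at most 10.8 on any array, under the lower limit of 12.

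**Figure D4:**
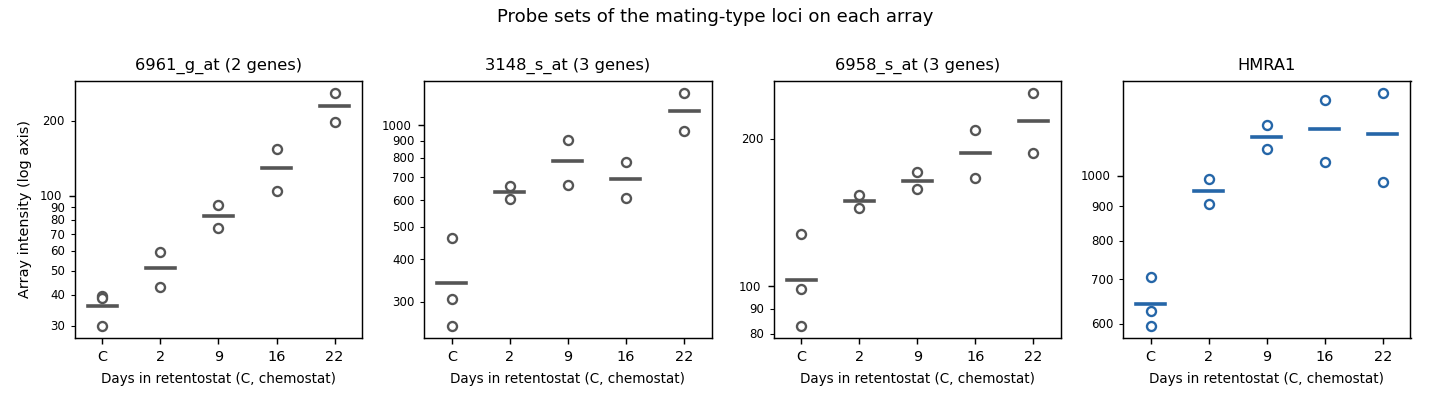
Array intensity (log axis) of 4 probe sets of the mating-type loci on each array, by days in the retentostat, with C for the chemostat. Circles are arrays and bars are group means; the first probe set climbs from 36.1 in the chemostats to 228 on day 22, and HMRA1 from 643 to 1155.

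The genes with the profile most like that of MF(ALPHA)1 were sought by Pearson correlation of log2 values over the 11 arrays, which share cultures and an order in age. They were ITT1 (r = 0.988), the small nucleolar RNA SNR51 (0.984), FBP1, the gluconeogenic fructose bisphosphatase (0.982), FAD1, which makes flavin adenine dinucleotide (0.981), COX17, a copper chaperone of cytochrome oxidase (0.981), and the transfer RNA gene YNCM0033C (0.980). Of the 10 genes the nearest was STE3 (0.974, rank 17), followed by PRM3 (0.962), SAG1 (0.957), MF(ALPHA)2 (0.938) and STE2 (0.936). MFA2 reached 0.803, BAR1 0.340, MFA1 0.335 and STE6 −0.15. For STE2 the nearest were ISM1 (0.968), BUD20 (0.959), STE14, the methyltransferase of a-factor (0.951), YNL146W (0.951), GRX8 (0.948) and RAD57 (0.948). The like profiles differ in size: on day 22 FBP1 had changed by 3.93, MF(ALPHA)1 by 3.30, SNR51 by 1.05 and ITT1 by 0.70.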

How the data were processed

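Transcripts were measured on 11 one-colour Affymetrix yeast arrays. Per the labels' protocols, samples were quenched in liquid nitrogen, RNA was prepared by the hot-phenol method, and targets carried biotin. The values the authors deposited are linear array intensities made with GCOS 1.2, per the submitters' processing notes, whose settings the sources used here do not state. Trimmed array means (2% at each end) spread over 0.0218%, and no further scaling was applied.

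Of 9335 probe sets, 60 are controls, 6504 carry 1 gene, 328 several and 2443 none. Only those with 1 gene were tested. All symbols were looked up in the R64 annotation and 0 changed. Values under 12 were set to 12 and log2 was taken. Of 5656 genes, 315 had several probe sets and the brightest was kept. The 59 genes at the limit on all arrays were dropped, leaving 5597. Group means of all 5 groups were estimated together by limma 3.58.1 (R 4.3.3), with 6 residual degrees of freedom and 4.82 from the prior. The model treats arrays of 1 culture on different days as independent. P-values were two-sided, with Benjamini-Hochberg adjustment and a threshold of 0.05. On simulated data for day 22 against the chemostat (5597 genes), 60 of 100 genes changed by 1 log2 unit were recovered. Of 100 changed by 2, 100 were recovered, and 7 unchanged genes were called. The simulation changed only these genes and drew independent noise for each array, without shared cultures. In the data 42.6% of all genes were called, so these rates do not carry over to them.

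The members and lists were chosen with earlier results of these data known. Named genes were the 10 members, up to 3 rises and 3 falls of each list on day 22 (where none passed, up to 2 values), the 6 genes most like MF(ALPHA)1, the 6 most like STE2, and genes of the mating-type loci with their own probe set. Alternatives covered the scaling, the lower limit, the filter, the choice of probe set, the samples fitted, replicate blocks, a variance trend and each array left out. A block on the 8 retentostat arrays alone was added after seeing the data. The series' design gives duplicate retentostats sampled on 4 days; that arrays of the same number come from the same culture is taken from their numbering and is not stated per sample. The correlation of deviations from the group means of same-numbered retentostat arrays was 0.08 to 0.40 over pairs of days. For chemostat and retentostat arrays of the same number it was −0.18 to 0.28. The number of arrays limits the precision.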

Additional observations from a re-analysis of the deposited data

Results flagged for a closer look

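Signals outside the genes tested came from probe sets that carry several symbols of the mating-type loci, and 3 of these lay above every chemostat array on both day 22 arrays. The mean intensity on day 22 was 228 for a probe set with 2 genes (36.1 ± 5.29, SD, in the 3 chemostats). It was 1104 (341 ± 109 in the chemostats) and 218 (103 ± 22.7) for the others, which carry 3 genes each. No gene is named from them, and the differences were not tested.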

How the results depend on the processing

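Leaving out the 2 arrays of lowest actin ratio lowered the genes called from 2206 to 993 (day 16), from 2387 to 1192 (day 22), from 82 to 2 (day 2) and from 931 to 192 (day 22 against day 2), and the other mating genes called from 30 to 17 (day 16) and from 32 to 13 (day 22). This leaves days 16 and 22 with a single array each, assumed to vary like the other groups. The day 2 count of 82 was 53 with scaling to 1 median, 45 with no lower limit, 48 with no filter, 125 with a mean of at least 50, 142 with the replicate block, and 0 by limma on the 2 groups alone; day 22 against day 2 gave 459 on its 2 groups alone. The 1 other mating gene called on day 2 became 0 with quantile normalization, no lower limit, no filter, the 2 groups alone, the replicate block, or without the low-actin arrays. The day 22 split of 1782 higher and 605 lower became 1214 and 1010 with quantile normalization and 1061 and 1027 with scaling to 1 median.

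The difference of alpha-specific and a-specific medians kept its sign. A lower limit of 50, above the chemostat and day 2 values of MF(ALPHA)2, gave 0.65 (day 9), 1.22 (day 16) and 0.99 (day 22). Averaging all probe sets gave 1.65 on day 16, and the low-actin arrays left out gave 1.11 on day 22. A mean of at least 50 removes MF(ALPHA)2 and gave no value. With single arrays left out it ranged over 0.22 to 0.35 (day 2), 1.16 to 1.39 (day 9), 1.45 to 2.01 (day 16) and 1.11 to 1.81 (day 22). Genes called then ranged over 4 to 156, 1251 to 2225, 1179 to 2525 and 1335 to 2650, and 243 to 1171 for day 22 against day 2. Other mating genes called ranged over 0 to 1, 17 to 29, 20 to 33 and 15 to 35. With the replicate block 30 of the 32 other mating genes stayed called on day 22, with STE14 and HO lost. All 7 member calls stayed too, from which nothing is read because the members were chosen on these changes.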

Other observations

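PRM3 and MF(ALPHA)1 lie near each other in the reference annotation, with 5 genes between them, all tested. This was looked up after their values were seen. Of the 5, 2 rose on day 22 against the chemostat: COA2, an assembly factor of cytochrome oxidase, by 2.49 ± 0.33 (limma adjusted p = 0.00016) and GUP2 by 0.70 ± 0.34 (adjusted p = 0.044). Of all genes 31.8% were called higher in that comparison. MIY2 (−0.45 ± 0.22), NAB3 (−0.25 ± 0.27) and POS5 (−0.26 ± 0.21) did not pass.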
